A study of Mus musculus with 9 samples.

Results

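The transcripts of 7 basic helix-loop-helix (bHLH) transcription factors of neurogenesis, Atoh7, Neurog2, Neurod4, Neurod2, Olig2, Hes6 and Bhlhe22, were measured on 9 Affymetrix arrays of mouse progenitor cells. The members were chosen by name. Every probe set that the platform annotation gives to exactly 1 of the 7 symbols was taken, which gave 12 of the 45101 probe sets on the array, for 6 of the 7 genes. No probe set was listed for Bhlhe22 alone, so this gene was not analysed here. Each value is a MAS5 intensity, a brightness in linear units that summarises the probes of 1 probe set on 1 array. Probe sets brighter than the 40th percentile of the same array on 3 or more arrays were kept. This left 10 of the 12 member probe sets, and all 6 measured genes were among the 13320 genes tested.

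The arrays fell into 3 groups of 3 biological repeats. DKK1-treated ESC-RPCs were cells made from embryonic stem cells, which the labels call retinal progenitor cells. They were given 1 ng/ml recombinant DKK1, a secreted antagonist of Wnt signalling, for 1 day. Untreated ESC-RPCs were the same kind of cells without DKK1. Primary RPCs came from the dissociated neural retina of C57 mice at postnatal day 1, and their source label calls them cultured. Both ESC-RPC groups came from a single line, 46C, which was made by gene targeting in E14Tg2a.IV cells and reports Sox1 expression. They were aggregated for 3 days with SB431542, a blocker of Nodal-type receptors, and Sox1-positive cells (35.8%) were sorted on day 7. Both ESC-RPC groups were then grown with 20 ng/ml bFGF and 10 µM DAPT, a gamma-secretase inhibitor that blocks the processing of Notch receptors, so the untreated cells carried Notch inhibition too. The protocols describe DAPT for the ESC-derived cells only. The series calls the untreated cells an early stage, the DKK1-treated cells a later stage, and the primary cells a negative control. Whether animals were pooled for a primary repeat is not given in the sources used here.

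Proneural bHLH factors drive dividing progenitors to leave the cell cycle and become neurons. They bind the E-box, CANNTG, as dimers with the widely expressed E proteins Tcf3, Tcf4 and Tcf12, and Id proteins block them by taking up the E proteins. Notch signalling holds them down through the repressors Hes1 and Hes5, while the factors switch on the Notch ligand Dll1, which signals to neighbouring cells. In the retina Atoh7 is required for ganglion cells, Neurog2 marks neurogenic progenitors, Neurod4 and Neurod2 act in amacrine cell formation, and Olig2 marks progenitors close to their last divisions. Hes6 belongs to the Hes family but opposes Hes1 and promotes neurogenesis, and Olig2 acts largely as a repressor, so the 7 genes share a protein family rather than a single proneural action.

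The promoters of the members are shown for the letters that bHLH dimers read. RefSeq (GRCm38.p6) held 8 promoter windows for the 6 measured genes, each from 250 bases before to 50 bases after an annotated start, with 2 starts for Neurod4 and for Hes6. Atoh7 and the second start of Hes6 are printed because they held the most E-boxes beside Neurod2, and Neurog2 because it held none. Sequences run 5′ to 3′ on the gene's strand, and capitals mark CANNTG, which reads the same on both strands. The windows are Atoh7 at chr10:63099535-63099834 on the + strand, the second start of Hes6 at chr1:91413989-91414288 on the - strand, and Neurog2 at chr3:127632886-127633185 on the + strand.
Atoh7: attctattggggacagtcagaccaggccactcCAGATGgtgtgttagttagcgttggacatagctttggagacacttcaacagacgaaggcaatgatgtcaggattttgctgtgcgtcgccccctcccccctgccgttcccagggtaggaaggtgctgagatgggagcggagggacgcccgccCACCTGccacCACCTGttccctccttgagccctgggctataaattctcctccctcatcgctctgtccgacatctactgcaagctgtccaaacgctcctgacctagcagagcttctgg
Hes6 start 2: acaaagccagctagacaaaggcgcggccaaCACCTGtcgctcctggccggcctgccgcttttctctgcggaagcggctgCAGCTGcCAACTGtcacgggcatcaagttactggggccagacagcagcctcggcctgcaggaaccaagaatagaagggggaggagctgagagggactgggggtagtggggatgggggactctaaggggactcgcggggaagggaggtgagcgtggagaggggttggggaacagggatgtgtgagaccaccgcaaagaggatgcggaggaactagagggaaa
Neurog2: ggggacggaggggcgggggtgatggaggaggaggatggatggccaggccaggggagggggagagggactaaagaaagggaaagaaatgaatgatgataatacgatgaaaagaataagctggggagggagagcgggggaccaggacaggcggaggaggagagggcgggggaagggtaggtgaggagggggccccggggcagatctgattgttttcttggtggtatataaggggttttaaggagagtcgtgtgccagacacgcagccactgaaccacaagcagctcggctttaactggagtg

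CANNTG occurred 3 times in the window of Atoh7, with first bases 218, 67 and 57 bases before the start, and 3 times at the second start of Hes6. Neurod2 also held 3, the first starts of Neurod4 and Hes6 held 1 each, and Neurog2, Olig2 and the second start of Neurod4 held none. Of all 32851 RefSeq promoter windows of this length, 72.3% held at least 1 CANNTG and 17.6% held 3 or more. In Atoh7 the form CACCTG, searched with its reverse complement CAGGTG, made up 2 of the 3 matches. This form occurred in 20.2% of all windows. The N-box CACNAG, a sequence bound by Hes repressors, was searched on both strands and occurs in 42.5% of all windows. It was found once in Neurog2 and at the first start of Neurod4, 2 times at the second start of Neurod4 and at the first start of Hes6, and in none of the other windows. The Neurod4 windows overlap. The N-box 206 bases before the first Neurod4 start is the same site as the one 90 bases before the second. These matches describe letters in a window and say nothing about binding in these cells.

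**Figure D1:**
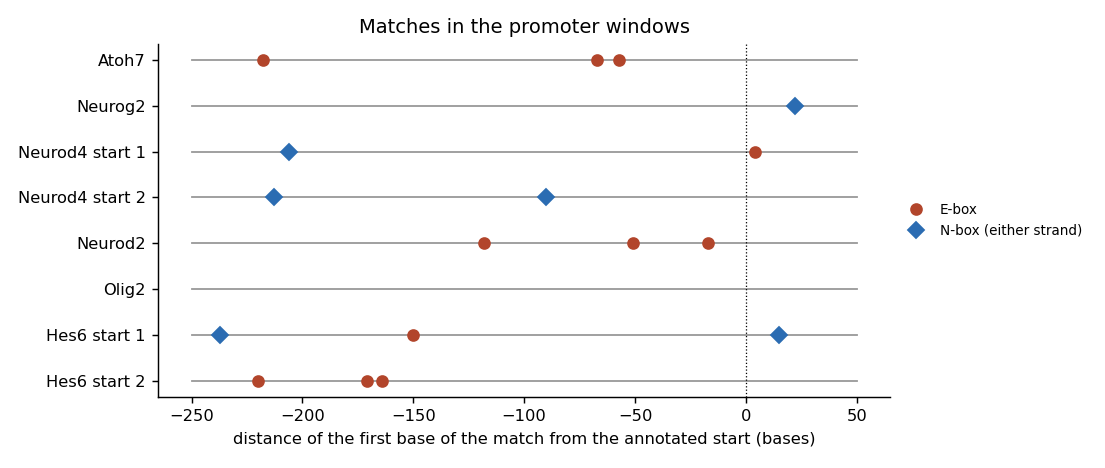
Positions of E-box (CANNTG, circles) and N-box (CACNAG, diamonds) matches in the 8 promoter windows of the 6 measured genes. The horizontal axis gives the distance in bases of the first base of each match from the annotated start, which is the dotted line. Atoh7, Neurod2 and the second start of Hes6 hold 3 E-boxes each, and Olig2 holds neither motif. The Neurod4 windows overlap and share an N-box.

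Across the series, the correlation of log2 values over genes, which are not independent replicates, was 0.975 to 0.985 for a DKK1-treated with an untreated array and 0.825 to 0.836 for an ESC-RPC with a primary array. In limma, with Benjamini-Hochberg adjustment over 13320 genes, 0 genes were called at an adjusted p under 0.05 between DKK1-treated and untreated cells, and 308 had an unadjusted p under 0.05. Between untreated and primary cells 7060 genes were called, and between DKK1-treated and primary cells 7034. The 40th percentile of an array, used here as the level below which a probe set counts as dim, was 45.6 to 47.7 on ESC-RPC arrays and 44.7 to 52.9 on primary arrays.

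All 6 measured genes were lower in both kinds of ESC-RPC than in primary RPCs. In the limma fit 6 of 6 fell in untreated against primary cells, where 26.9% of all genes fell and 53% changed in either direction. In DKK1-treated against primary cells 6 of 6 fell as well, against a background of 26.8% lower and 52.8% in all. Both comparisons use the same 3 primary arrays, so they are not separate evidence. The groups did not overlap for any of the 6 genes in either comparison, which held, with the ESC-RPC group lower, for 30.6% of all genes in untreated and 30.2% in DKK1-treated against primary cells (60% and 59.2% in either direction). In these bulk samples, fewer cells that express a gene and less of its RNA in each cell cannot be told apart.

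**Figure D2:**
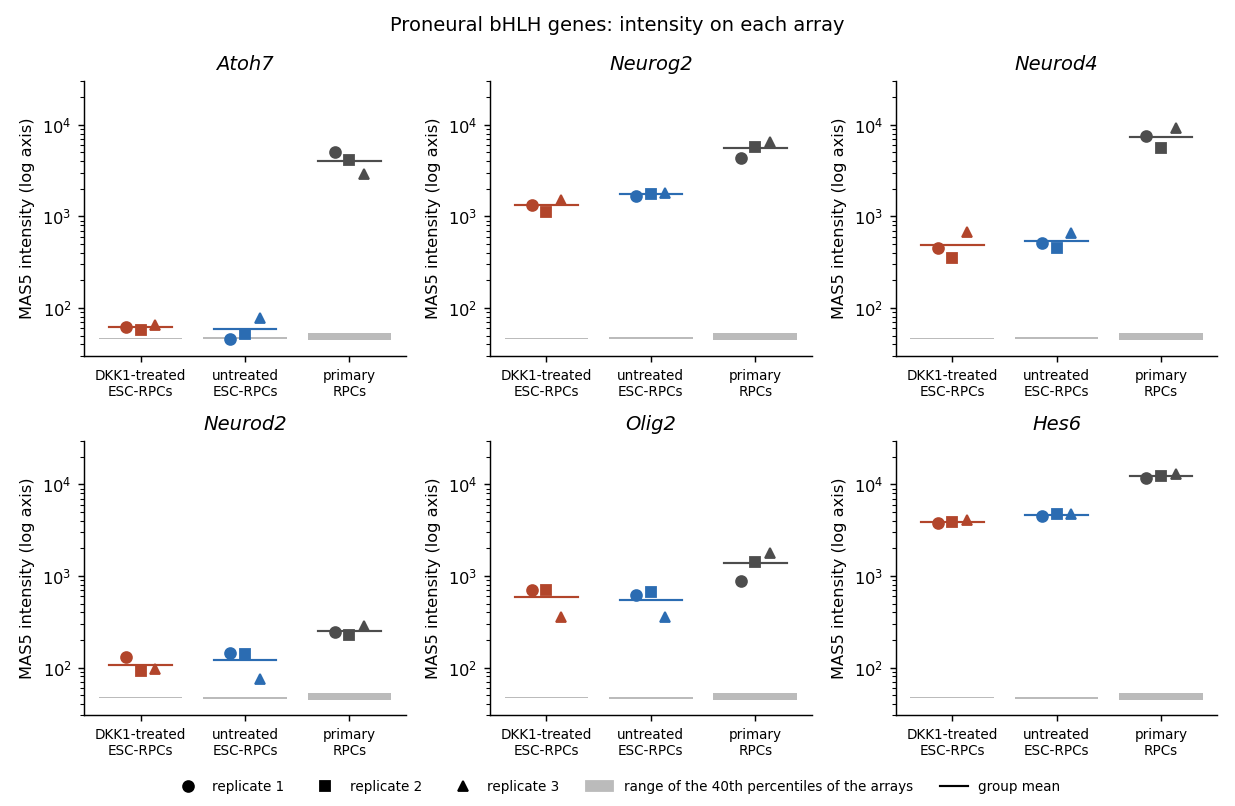
MAS5 intensity of the 6 measured bHLH genes on each of the 9 arrays (log axis), in DKK1-treated ESC-RPCs, untreated ESC-RPCs and primary RPCs, for the probe set that represents each gene. Symbols give the replicate number, lines the group means, and grey bands the range of the arrays' 40th percentiles. All primary arrays lie above all ESC-RPC arrays for each gene, and Atoh7 lies close to the grey band in both ESC-RPC groups.

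Atoh7, the factor that makes progenitors competent to form ganglion cells, differed most. Its intensity was 62.5, 57.5 and 64.9 in DKK1-treated cells, 46.0, 52.7 and 78.7 in untreated cells, and 5029, 4085 and 2878 in primary cells. One untreated array lay below its own 40th percentile, and the other 5 ESC-RPC arrays lay above theirs. Atoh7 was 67.7-fold lower in untreated than in primary cells (log2 difference -6.08, SE 0.24, adjusted p = 2.29e-08 in limma). In DKK1-treated cells it was 63.3-fold lower than in primary cells (log2 difference -5.98, adjusted p = 2.42e-08). These folds depend on the low ESC-RPC values, since with an offset of 50 added before log2 the differences were -5.14 in DKK1-treated and -5.19 in untreated against primary cells. The mean in DKK1-treated cells was 1.54% of that in primary cells, and the mean in untreated cells 1.48%. The second Atoh7 probe set measured 19.6, 12.3 and 10.5 in DKK1-treated cells, 5.36, 13.9 and 3.93 in untreated cells, and 1339, 1001 and 579.9 in primary cells. All 6 ESC-RPC arrays were dim on it, which makes it at least 19.5-fold lower in DKK1-treated and at least 19.7-fold lower in untreated cells than in primary cells.

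Neurod4, a factor of amacrine and other retinal neurons formerly known as Math3, showed the next largest gap. It measured 447, 355 and 671 in DKK1-treated cells, 506, 452 and 663 in untreated cells, and 7451, 5522 and 9164 in primary cells. It was 13.5-fold lower in untreated than in primary cells (log2 difference -3.76, SE 0.25, adjusted p = 8.23e-07 in limma) and 15.3-fold lower in DKK1-treated than in primary cells (adjusted p = 5.82e-07). It stood above the 40th percentile on all 9 arrays. A second probe set gave log2 differences of -4.47 for DKK1-treated and -4.20 for untreated cells. On the third, all ESC-RPC arrays were dim, against 106, 84.2 and 116 in primary cells, or at least 2.15-fold lower in DKK1-treated and at least 2.17-fold lower in untreated cells.

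Neurog2, a proneural factor of progenitors that are about to differentiate, measured 1327, 1126 and 1513 in DKK1-treated cells, 1689, 1739 and 1804 in untreated cells, and 4333, 5733 and 6551 in primary cells. The 3 groups were ordered without overlap, DKK1-treated lowest and primary highest. DKK1-treated arrays lay below untreated arrays for 6.73% of all genes, and untreated below primary arrays for 30.6%. The share of all genes with the full order of 3 groups was not counted. The means were 1322 ± 193, 1744 ± 57.9 and 5539 ± 1122 (SD, n = 3 arrays each). DKK1-treated cells thus held 23.9% of the primary intensity and untreated cells 31.5%. The log2 difference was -2.06 in DKK1-treated against primary cells (SE 0.15, adjusted p = 1.60e-06 in limma) and -1.65 in untreated against primary cells (adjusted p = 8.41e-06).

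Hes6, the antagonist of Hes1, showed the same order of groups with less spread. It measured 3775, 3890.5 and 4033 in DKK1-treated cells, 4492, 4794 and 4698 in untreated cells, and 11613, 12349.9 and 13076 in primary cells. The means were 3899.6 ± 129, 4661 ± 154 and 12346 ± 731 (SD, n = 3 arrays each). DKK1-treated cells held 31.6% of the primary intensity and untreated cells 37.8%. The log2 difference was -1.66 in DKK1-treated against primary cells (SE 0.06, adjusted p = 2.20e-08 in limma) and -1.40 in untreated against primary cells (adjusted p = 6.97e-08). This probe set carries the suffix that Affymetrix gives to sets whose probes can match other transcripts. The other Hes6 probe set measured 1994, 1887 and 2092 in DKK1-treated cells, 2207, 2151 and 2137 in untreated cells, and 8236, 9258 and 9791 in primary cells. Its log2 differences from primary cells were larger, at -2.19 in DKK1-treated and -2.07 in untreated cells.

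Olig2, a repressor of ventral spinal and late retinal progenitors that also founds the oligodendrocyte lineage, measured 701, 709.7 and 355 in DKK1-treated cells, 627, 671 and 353 in untreated cells, and 883, 1428 and 1793 in primary cells. The third repeat was the low one in both ESC-RPC groups, and no ESC-RPC array reached the lowest primary array. Olig2 fell by 1.23 on the log2 scale in DKK1-treated against primary cells (SE 0.34, adjusted p = 0.0116 in limma) and by 1.31 in untreated against primary cells (adjusted p = 0.00822).

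Neurod2, a factor of maturing neurons that acts in amacrine and ganglion cells, measured 132, 90.8 and 97.1 in DKK1-treated cells, 144, 139.6 and 75.8 in untreated cells, and 242, 228 and 285 in primary cells. All ESC-RPC arrays lay below all primary arrays. It was 2.38-fold lower in DKK1-treated than in primary cells (adjusted p = 0.00239 in limma) and 2.18-fold lower in untreated than in primary cells (adjusted p = 0.00454). A second probe set did not pass the filter. It was dim on all ESC-RPC arrays and measured 29.8, 57.4 and 141 in primary cells, at least 1.32-fold lower in DKK1-treated and 1.33-fold lower in untreated cells. The third was dim on all 9 arrays and gives no fold.

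**Figure D3:**
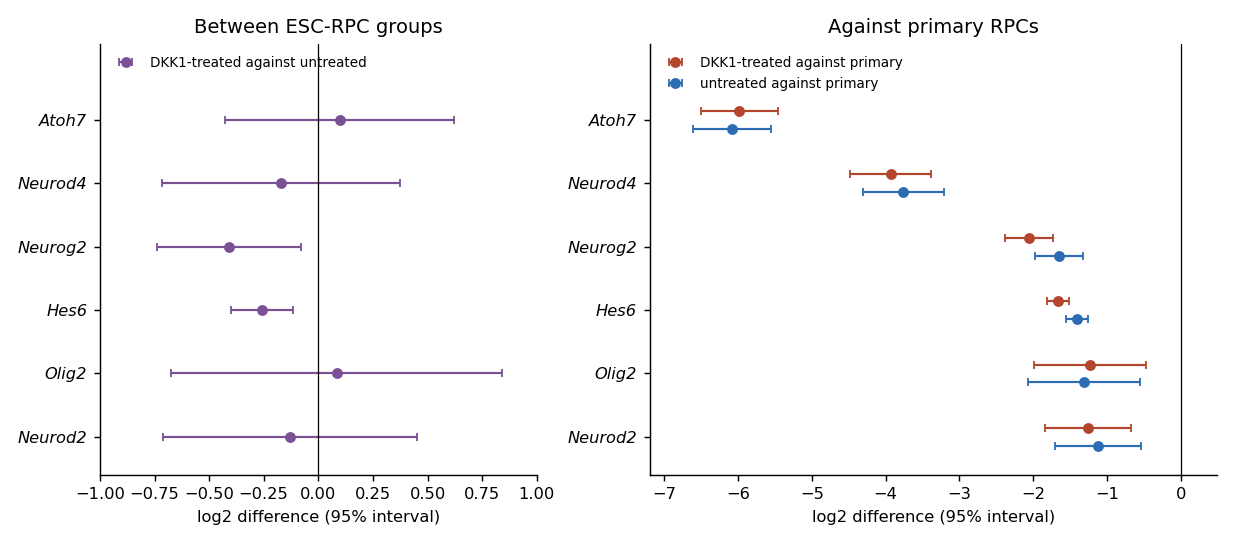
Log2 differences with 95% intervals from limma (3 arrays per group) for the 6 measured bHLH genes. The left panel sets DKK1-treated against untreated ESC-RPCs, and the right panel sets each ESC-RPC group against primary RPCs. Against primary cells the differences run from -6.08 for Atoh7 in untreated cells to -1.12 for Neurod2 in untreated cells. Between the ESC-RPC groups the intervals of Hes6 and Neurog2 lie below 0 before adjustment over all genes.

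Setting DKK1-treated beside untreated cells asks what differed after 1 day of DKK1. In the limma fit of 9 arrays 0 of the 6 genes were called (background 0%), and all 6 had an adjusted p of 0.9997. Hes6 and Neurog2 had the lowest p-values of the 6, and these 2 had an unadjusted p under 0.05 and were lower, as were 1.16% of all genes (2.31% in either direction). DKK1-treated arrays were all below untreated arrays for both genes, a pattern that 6.73% of all genes showed in that direction. Hes6 in DKK1-treated cells was at 83.7% of untreated cells (log2 difference -0.26, SE 0.06, 95% interval -0.40 to -0.11) and ranked 12 of 13320 by p. Neurog2 in DKK1-treated cells was at 75.8% of untreated cells (log2 difference -0.41, SE 0.15, 95% interval -0.74 to -0.08) and ranked 90. For the other 4 genes the groups overlapped. The log2 difference was 0.10 for Atoh7 (95% interval -0.43 to 0.62), -0.17 for Neurod4 (-0.72 to 0.38), 0.08 for Olig2 (-0.67 to 0.84) and -0.13 for Neurod2 (-0.71 to 0.45). These intervals reach 0.38 or more from 0 on both sides, so a p above the threshold does not show that the groups were equal.

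The replicate numbers of the 2 ESC-RPC groups were taken to pair their arrays. The labels do not state this pairing, and it was inferred from these same values, so the blocked calls are conditional on it. With the number as a block on these 6 arrays both Hes6 and Neurog2 were called. Hes6 in DKK1-treated cells was lower by 0.25, 0.30 and 0.22 on the log2 scale in pairs 1, 2 and 3 (SE of the mean difference 0.04, adjusted p = 0.0203 in limma). Neurog2 was lower by 0.35, 0.63 and 0.25 in these pairs (SE 0.07, adjusted p = 0.0459). In this blocked fit 2 of the 6 genes fell, where 0.27% of all genes fell and 0.488% were called in either direction. The second Hes6 probe set was also lower in all 3 pairs, as were 19% of all genes, but it was not called when all probe sets were fitted with the block (log2 difference -0.12, adjusted p = 0.338). Neither call survived without replicate 2, with adjusted p = 0.0946 for Hes6 and 0.111 for Neurog2. Neither survived when the probe sets of a gene were averaged (0.140 and 0.127), without the intensity trend in limma (0.473 and 0.480), or with the block on all 9 arrays (0.9997 for both). Neurog2 alone was also lost with all kept probe sets (adjusted p = 0.0626) and with quantile normalisation (0.0624). The other 4 genes were not called with the block, with adjusted p of 0.407 for Neurod4, 0.648 for Olig2, 0.822 for Neurod2 and 0.901 for Atoh7.

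The arrays with number 3 stood apart for several bHLH genes in both ESC-RPC groups. Olig2 on them was 0.99 and 0.88 below the mean log2 of arrays 1 and 2, in DKK1-treated and untreated cells. Its neighbour in the family Olig1 measured 2355, 1860 and 636 in DKK1-treated cells, 1769.98, 1731 and 596 in untreated cells, and 31.5, 85.7 and 60.1 in primary cells. Neurod4 on the number 3 arrays was 0.75 and 0.47 above arrays 1 and 2. Neurog1, a close relative of Neurog2, measured 479, 405 and 962 in DKK1-treated cells, 476, 499 and 956 in untreated cells, and 381, 394 and 333 in primary cells. Olig1 and Neurog1 are named after their values were seen. Of the 18 bHLH genes tested, the 6 members and 12 relatives, 3 lay more than 0.5 below arrays 1 and 2 in both groups and 2 lay more than 0.5 above. Over all genes 2.55% lay below and 1.23% above by this measure. The same shares were not computed for numbers 1 and 2. These values therefore do not show whether number 3 differed more than the others over all genes. The labels name no batch or date that goes with the number.

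**Figure D4:**
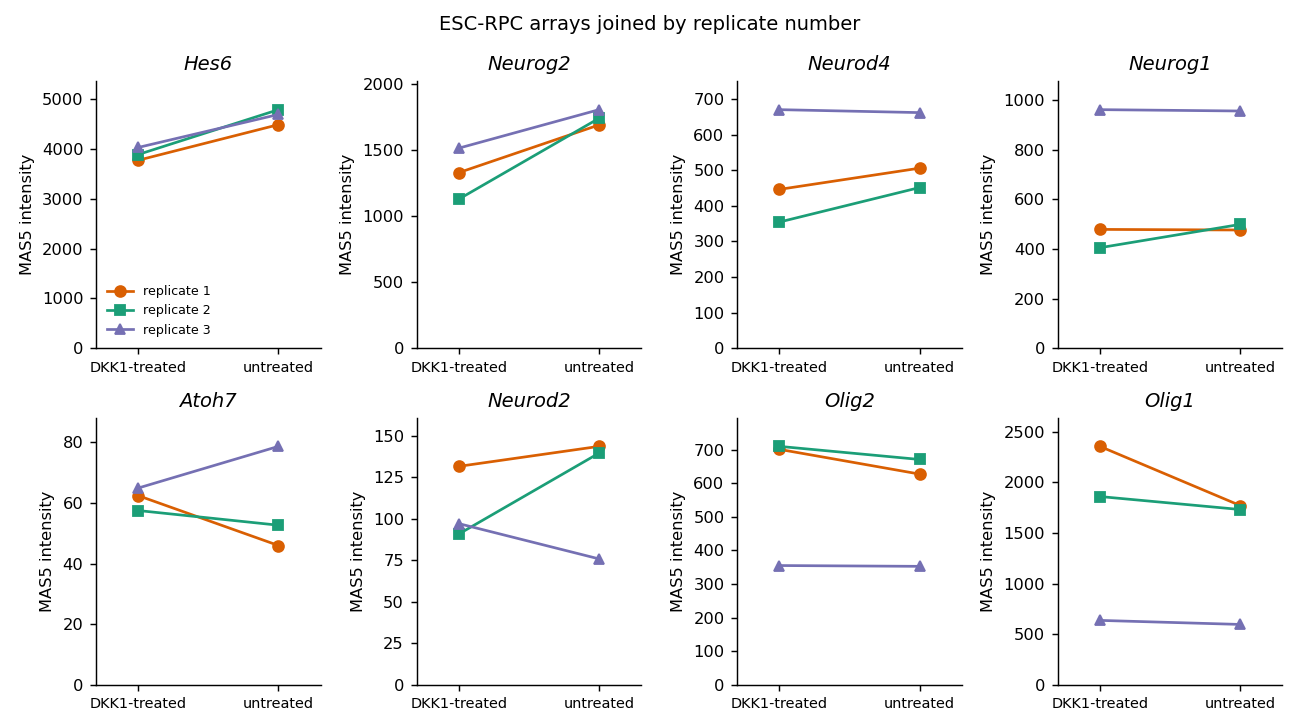
MAS5 intensity of the 6 measured bHLH genes and of Neurog1 and Olig1 on the 6 ESC-RPC arrays, with DKK1-treated on the left and untreated on the right of each panel and lines joining arrays of the same replicate number. Lines run upward to the untreated arrays in all 3 pairs for Hes6 and Neurog2. Replicate 3 stands above the others in both groups for Neurod4 and Neurog1 and below them for Olig2 and Olig1.

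The relatives of these factors did not all follow them. Of 18 other proneural and neuronal bHLH genes listed, 12 were tested. In untreated against primary cells 7 rose and 3 fell in limma, against a background of 26.1% higher and 26.9% lower. The list's median log2 difference was 1.58, or 0.75 with dim genes at their bound, against -0.0068 over all genes. Tal2, a bHLH factor of midbrain GABAergic neurons, measured 2673 ± 584 in DKK1-treated cells, 2537 ± 708 in untreated cells and 30.9 ± 4.28 in primary cells, where it was dim. It was at least 52.2-fold higher in untreated than in primary cells (adjusted p = 7.02e-09). Nhlh1, a factor of newborn neurons, rose by 2.61 on the log2 scale (adjusted p = 3.63e-05) and Olig1 by 4.49 (adjusted p = 7.73e-05). The 3 that fell were Neurod1, Ptf1a and Atoh8. Neurod1, which acts in photoreceptors and amacrine cells, measured 1204 ± 241 in DKK1-treated cells, 1449 ± 182 in untreated cells and 16847 ± 1667 in primary cells (log2 difference -3.54 in untreated against primary cells, adjusted p = 2.70e-08). Ptf1a, which specifies amacrine and horizontal cells, measured 25.5 ± 23.3 in DKK1-treated, 46.7 ± 11.2 in untreated and 1491 ± 239 in primary cells. Atoh8 was dim in untreated cells and at least 2.59-fold lower than in primary cells. In DKK1-treated against primary cells 6 of the 12 rose and 4 fell (background 26% higher, 26.8% lower), and between the ESC-RPC groups 0 of 12 were called (background 0%).

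The dimer partners had smaller log2 differences from primary cells than the members. Of the 3 E proteins 1, Tcf12, was called in untreated against primary cells, at 11160.3 ± 888 in DKK1-treated, 11736 ± 803 in untreated and 8455 ± 144 in primary cells (log2 difference 0.47 in untreated against primary cells, adjusted p = 0.000273 in limma). Tcf3 had a log2 difference of 0.05 (adjusted p = 0.719) and Tcf4 of -0.30 (adjusted p = 0.107). The inhibitors were higher. All 4 Id genes rose in untreated against primary cells, with a median log2 difference of 1.44, where 26.1% of all genes rose. Id2 measured 7108 ± 1122 in DKK1-treated, 7166 ± 1027 in untreated and 1601 ± 255 in primary cells (2.17 in untreated against primary cells, adjusted p = 1.05e-06), and Id4 rose by 2.05 (adjusted p = 1.69e-07). Id3 rose by 0.83 (adjusted p = 0.000967) and Id1 by 0.60 (adjusted p = 0.0255). In DKK1-treated against primary cells 3 of the 4 rose (background 26%), and Id1 was not called (log2 difference 0.48, adjusted p = 0.0637).

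**Figure D5:**
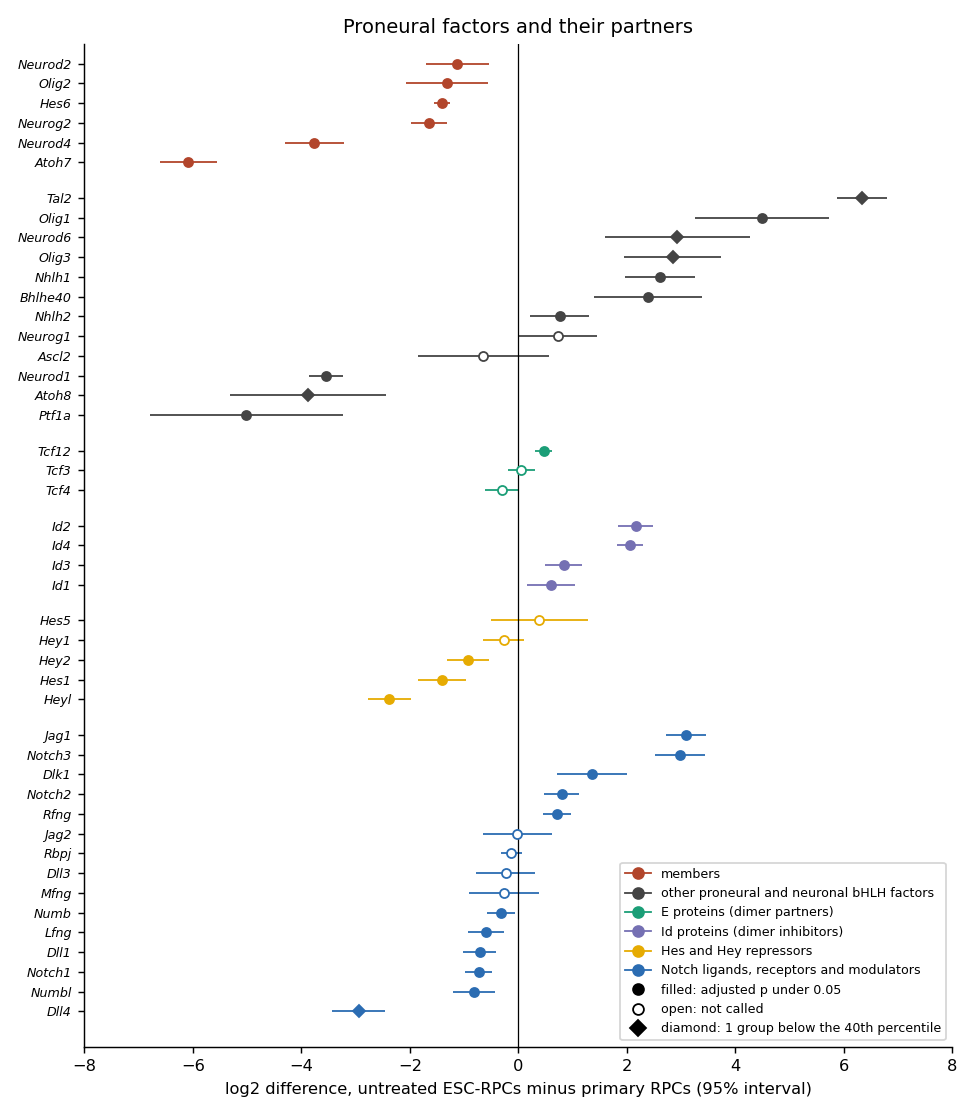
Log2 differences of untreated ESC-RPCs minus primary RPCs with 95% intervals from limma (3 arrays per group), for the 6 measured members, 12 other bHLH genes, 3 E proteins, 4 Id genes, 5 Hes and Hey genes and 15 Notch pathway genes. Filled symbols are genes called at an adjusted p under 0.05, and diamonds are genes whose arrays were all dim in 1 of the groups, for which the plotted value is fitted and is no bound. All 6 members lie below 0 and all 4 Id genes above 0.

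The repressors and ligands of the Notch pathway lay on both sides. Of 5 tested Hes and Hey genes 3 fell in untreated against primary cells and 0 rose, where 26.9% of all genes fell and 26.1% rose. Hes1 measured 413 ± 77.9 in DKK1-treated, 484 ± 73.0 in untreated and 1301 ± 296 in primary cells (log2 difference -1.41 in untreated against primary cells, adjusted p = 0.000199 in limma). Heyl fell by 2.38 (adjusted p = 2.31e-06) and Hey2 by 0.92 (adjusted p = 0.00143), and Hey1 had a log2 difference of -0.27 (adjusted p = 0.215). Hes5, the other main Notch target in neural progenitors, measured 5259.8, 4771 and 6135 in DKK1-treated cells, 6092, 5862 and 6744 in untreated cells, and 6303, 2002 and 8478 in primary cells, with one primary array far below the other 2 (adjusted p = 0.439). Of 15 Notch ligands, receptors and modulators 5 rose and 6 fell, against the same background. Jag1, a ligand, rose by 3.09 (adjusted p = 1.85e-07) and Notch3 by 2.98 (adjusted p = 1.22e-06). Dll4, a ligand of neurogenic retinal progenitors, was dim in untreated cells and at least 6.05-fold lower than in primary cells (adjusted p = 2.16e-06), and Notch1 fell by 0.73 (adjusted p = 0.000354). The median of the 15 was -0.23, against -0.0068 over all genes.

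Dll1, the ligand that proneural factors activate, followed the order of Neurog2 and Hes6, whose share over all genes was not counted. It measured 1726, 1614 and 1752 in DKK1-treated cells, 1930.05, 2065 and 1996 in untreated cells, and 2879.7, 2859 and 4245 in primary cells. It fell by 0.71 on the log2 scale in untreated against primary cells (adjusted p = 0.00144 in limma) and by 0.95 in DKK1-treated against primary cells (adjusted p = 0.00022). DKK1-treated arrays were all below untreated arrays, a pattern that 6.73% of all genes showed in that direction, and the log2 difference of -0.23 was not called. Of the 15 Notch pathway genes 13 had a lower mean log2 in DKK1-treated than in untreated cells, as did 50.5% of all genes, with a median of -0.08 and 0 called.

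Genes known to lie downstream of proneural factors rose and fell in untreated against primary cells. Of 26 tested, 11 rose and 6 fell, where 26.1% of all genes rose and 26.9% fell, and the median log2 difference was 0.09. These 26 include the member Hes6, which fell, and Nhlh1 and Mfng, which are also counted in the lists above. Leaving aside Hes6, the 4 with the smallest adjusted p all rose. Tubb3, a tubulin of young neurons, measured 8712 ± 813 in DKK1-treated, 9156 ± 588 in untreated and 2605 ± 55.3 in primary cells (1.81 in untreated against primary cells, adjusted p = 4.76e-08 in limma). Elavl4, a neuronal RNA-binding protein, rose by 1.65 (adjusted p = 7.97e-08), Sox11, a factor of newborn neurons, by 1.15 (adjusted p = 9.87e-08) and Ebf2 by 3.02 (adjusted p = 2.13e-07). Isl1, a ganglion cell factor that Atoh7 activates and that is named here after its values were seen, measured 887 ± 95.7 in DKK1-treated, 893 ± 74.6 in untreated and 2049 ± 726 in primary cells (log2 difference -1.15, adjusted p = 0.000756). In DKK1-treated against primary cells 11 rose and 8 fell (background 26% higher, 26.8% lower). Between the ESC-RPC groups 0 of 26 were called, with a median of -0.01.

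Markers of the cell types in which these factors act moved as follows in untreated against primary cells, where 26.1% of all genes rose and 26.9% fell. Of 9 tested photoreceptor markers 8 fell, and the summed intensity of 12 was 1358 to 1807 on DKK1-treated arrays, 1601 to 2003 on untreated arrays and 25844 to 37809 on primary arrays. These sums include Neurod1, which is also counted among the bHLH relatives above, and Crx, Nrl, Sag, Rcvrn, Gnat1, Gngt1, Pde6b and Opn1sw were dim on all untreated arrays. Of 11 retinal progenitor markers 8 fell and 3 rose, with sums of 23942 to 27253, 24079 to 27216 and 53748 to 63801 in DKK1-treated, untreated and primary cells. The 3 that rose were Sox2, Fgf15 and Sfrp2, and Sox2 was the brightest of the list on every ESC-RPC array. Rax and Six6 fell and are named here after their values were seen. Rax measured 7.47, 50.2 and 27.0 in untreated and 3185, 3635 and 4996 in primary cells. Six6 measured 50.4, 31.4 and 56.1 in untreated and 4282, 4007 and 4869 in primary cells. Hmx1 and Aldh1a1 were dim in both ESC-RPC groups. Of 14 ganglion cell markers 4 rose and 7 fell, with sums of 25786 to 30388 in DKK1-treated, 26771 to 30139.7 in untreated and 27021 to 36814 in primary cells. Stmn2, Elavl4, Ebf3 and Isl1 in these sums are also counted among the downstream genes above. Stmn2, named here after its values were seen, was the brightest of the 14 on every ESC-RPC array. It measured 7411, 7738 and 6107 in untreated and 6544, 6737 and 7039 in primary cells. Single markers, named here after their values were seen, moved in opposite ways. Dlx1 measured 1832, 1535 and 1053 in untreated and 90.7, 183 and 98.3 in primary cells. Pou4f1 measured 444, 590 and 295 in untreated and 1119, 1952 and 986 in primary cells. Sncg measured 28.7, 59.5 and 85.9 in untreated and 1475, 3858 and 2538 in primary cells. For the oligodendrocyte lineage, which Olig2 founds, 4 of 7 rose and 0 fell, the sum was 2994 to 5290.3 in DKK1-treated, 2935 to 4445 in untreated and 1901 to 2981 in primary cells, and Mog, Mag and Enpp6 were dim in all groups. This sum includes Olig1, and its higher values in ESC-RPCs rest largely on that gene. Olig1 measured 2355, 1860 and 636 in DKK1-treated, 1769.98, 1731 and 596 in untreated and 31.5, 85.7 and 60.1 in primary cells. Of the other bright genes in the sum, Pdgfra was higher in untreated than in primary cells, while Cnp and Mbp overlapped. With dim genes at their bound, the list's median log2 difference in untreated against primary cells was 0.053. Of 13 amacrine and horizontal cell markers 3 rose and 6 fell. Their sums were 9199 to 13237 in DKK1-treated, 8422 to 10441 in untreated and 10123 to 12295 in primary cells. Genes within these sums moved in opposite ways, so overlapping sums do not show a like makeup. Gad1 measured 3486, 4563 and 2998 in untreated and 452, 902 and 1242 in primary cells. Tfap2b measured 1640, 1515 and 1274 in untreated and 2674, 2718 and 3175 in primary cells. Both are named here after their values were seen. Of 4 bipolar cell markers 3 fell. Of 11 cortical and pan-neuronal markers 5 rose and 4 fell. Of 9 Müller glia and astrocyte markers 7 rose and 2 fell. The 2 that fell were Glul and Rlbp1, named here after their values were seen. Of 9 mesenchyme markers 8 rose, and of 7 microglia markers 5 fell. Of 9 ventral cord markers 5 rose and 2 fell, and of 10 pluripotency markers 9 rose. The pluripotency sum was 21972 to 23728 in DKK1-treated, 18885 to 22909 in untreated and 564 to 887 in primary cells. The part of cell makeup in the bHLH differences was not tested.

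Profiles most like those of the members were found by the root mean square distance of centred log2 values over the 9 arrays, as a description without a test. Nearest to Atoh7 were Kdr (0.378), Prdm1 (0.397) and Myb (0.413), and nearest to Neurod4 were its relative Neurod1 (0.208), Cdhr1 (0.211) and Gpr37 (0.282). Neurog2 was nearest to Rbp4 (0.171), Mylip (0.180) and Tmem158 (0.183), and Hes6 to Trnp1 (0.0957), Iftap (0.101) and Spc25 (0.106). Neurod2 was nearest to Foxo3 (0.141), Srrm4os (0.191) and 1300002E11Rik (0.194), and Olig2 to Gpr162 (0.187), C1qtnf4 (0.201) and Cygb (0.205). Distances of this kind are smallest for genes whose arrays vary little within groups, so they are not compared between members.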

How the data were processed

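Total RNA of 3 groups of 3 repeats was labelled with a 3-prime kit and hybridised to Affymetrix arrays, per the labels' protocols. The deposited values are intensities in linear units that the authors made with MAS5, per the submitters' processing notes. Its version and settings, detection calls and a genome build are not given in the sources used here. Each deposited intensity column had a 2% trimmed mean of 500, so arrays had been scaled to 1 mean. Arrays give no read depth, and their number limits the precision.

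Log2 was taken of each deposited intensity with no offset and no further normalisation. Of 45101 probe sets 64 were controls, 932 matched several genes and 9160 had no gene. Of the kept probe sets of a gene, the one brightest in mean log2 stood for it. The groups were compared in limma 3.58.1 (R 4.3.3), with 1 mean per group over all 9 arrays, an intensity trend, two-sided tests and adjustment over 13320 genes. For a group with every array under that array's 40th percentile, folds were taken against those percentiles and are printed as "at least".

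Correlations of deviations from group means were 0.123 to 0.318 for DKK1-treated with untreated arrays of the same number and -0.234 to 0.0681 otherwise. These numbers were therefore taken as pairs, which the labels do not state. Deviations within a group are tied to each other, so the ranges are not independent. The highest value, 0.318, was for number 3 and the lowest same-number value, 0.123, for number 1. The blocked calls rest on pairs inferred from these same values. Same-number values with primary arrays were -0.0433 to -2.36e-06 for untreated and -0.0399 to -0.0156 for DKK1-treated arrays, so primary arrays were not paired. A replicate block was fitted on the 6 ESC-RPC arrays.

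The members, lists, tests and the blocked fit were chosen with earlier results of these data known. Besides members, the rule named up to 4 genes of a list with the smallest adjusted p, the 3 most like profiles, and Tcf3, Tcf4, Tcf12, Id1 to Id4, Hes1, Hes5 and Dll1. Promoter windows came from RefSeq by symbol, and all 6 measured members matched. Alternatives covered normalisation, filter, offset, probe set choice, trend, block and leaving out each array.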

Additional observations from a re-analysis of the deposited data

How the results depend on the processing

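Against primary cells, the 19 alternatives tried (normalisation, filter, offset, probe set choice, trend, block and left-out arrays) kept each of the 6 genes lower and called in both comparisons. For Olig2 the adjusted p in limma reached 0.0344 in untreated and 0.0468 in DKK1-treated against primary cells. Leaving out 1 array gave 5942 to 7286 genes called in untreated and 5931 to 7308 in DKK1-treated against primary cells. With all kept probe sets in place of 1 per gene, more features were tested, and 13798 and 13823 were called in untreated and in DKK1-treated against primary cells.

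In DKK1-treated against untreated cells, 0 genes were called under the other settings, 1 without the intensity trend, and 65 with the replicate block on 6 arrays, with 2 of the members. With the block, all kept probe sets gave 61 calls (1 member set), quantile normalisation 32 (1 member, and in both settings the member kept was Hes6) and averaged probe sets or no trend 0. Leaving out 1 pair gave 71, 8 and 213 blocked calls without replicate 1, 2 and 3, with 0 to 2 members. The replicate block on all 9 arrays gave 0.

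Small uncalled log2 differences between DKK1-treated and untreated cells changed sign when 1 array was left out. Olig2 ran from -0.21 to 0.41, Neurod4 from -0.42 to 0.038, Atoh7 from -0.065 to 0.32 and Neurod2 from -0.43 to 0.030. With the block and a pair left out, Atoh7 was -0.075 without replicate 1 and Neurod2 0.12 without replicate 2. The cause was not tested.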
